A study of Mus musculus with 12 samples.

Results

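The oligoadenylate synthetase (OAS) family was examined in cultured mammary epithelial cells (MECs) that carried wild type or conditionally deleted (cKO) Blimp-1. The 9 genes were Oas1a, Oas1b, Oas1c, Oas1d, Oas1g, Oas2, Oas3, Oasl1 and Oasl2. They were chosen by name, as every array probe annotated to these genes under an old or a current symbol, which gave 20 of the 45281 probes. A probe was tested where its detection p was under 0.05 on at least 3 of 12 arrays, which held for 16 OAS probes and for 19972 probes in all. Each of the 9 genes kept at least 1 tested probe, among 10724 genes that did so. The other 4 OAS probes (Oas1d 2737613, Oas1g 1255890 and 2624469, and Oas3 2650991) were detected on no array, with signals before normalization between 139 and 261.

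RNA was hybridized to Illumina Mouse WG-6 v2 BeadChips from cultures in which primary MECs form acini on Matrigel, and 3 arrays were run for each genotype at day 3 (D3) and at day 4 (D4) of culture. Wild type cells came from pregnant C57BL/6 females, and cKO cells from pregnant Prdm1 BEH/CA;ROSA26:CreERT2 females, in which Prdm1, the gene of the transcriptional repressor Blimp-1, is deleted once Cre is active. Every culture, wild type ones included, was given 4-hydroxytamoxifen at 100 nM over 24 h from the start. Cre is not mentioned for the wild type donors, so loss of Blimp-1, Cre activity and the donor line cannot be told apart on these arrays. The RNA is described as coming from independent cultures, but not whether these stem from separate animals. The p-values thus reflect only the spread among samples within groups, which the main fit estimates over all 4 groups together. In RNA from whole cultures, more cells that express a gene and more RNA per cell cannot be told apart.

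OAS proteins are interferon-induced sensors of double-stranded RNA. When bound to it, the active enzymes join ATP into short chains with 2′-5′ linkages (2-5A), a signal that leads to the breakdown of viral and cellular RNA. The family holds active enzymes and members without this activity. Interferons raise transcription of OAS genes through ISGF3, a complex that includes Stat2 and Irf9 and binds a DNA element called ISRE, and Blimp-1 can bind elements that resemble it.

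The groups with the lowest and the highest mean signal were the same in every member. For all 9 genes, each represented by its tested probe with the highest mean, D3 wild type arrays had the lowest mean and D4 cKO arrays the highest, with D3 cKO and D4 wild type in between. The D3 cKO mean was above the D4 wild type mean in 7 of 9 genes and below it in Oas1c and Oas1d. The share of all genes with such an order of groups was not counted. At D3, 7 of 9 genes were higher in the cKO and 0 were lower (limma, adjusted p at most 0.05 and at least 1.5-fold), beside 1.94% of all genes higher and 0.55% lower. At D4, 6 of 9 genes were higher and 0 were lower, beside 2.79% and 1.45% of all genes. Oas3, among the called genes at both days, was detected on cKO arrays alone, so it passed the detection filter only through them. It therefore adds no support to these counts or to the order of groups. By the methods' t-test, which is the test of the general statistics and not that of the arrays, the D3 count was 8 without adjustment and 0 after Benjamini-Hochberg adjustment, and the D4 count 7 and 5. That t-test called 4.21% and 0.0373% of all genes in either direction at D3, and 6.09% and 0.765% at D4. From D3 to D4, 8 of 9 genes were called higher in wild type and 4 of 9 in the cKO, beside 7.09% and 2.53% of all genes higher. Among the 8 is Oas3, which no wild type array detected, so its call there is no measured rise. None of the 9 fell in either genotype, beside 4.89% and 1.61% of all genes lower. The median log2 fold change of the 9 genes between genotypes was 2.07 at D3 and 1.40 at D4, where the median over all genes was -0.02 at both days. Oas1a, Oas1b, Oas1d and Oas3 were not detected in D3 wild type and enter the D3 median with fitted differences in place of lower bounds. The D3 median therefore depends on signals below detection, and the 2 medians give no comparison of size between the days.

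**Figure D1:**
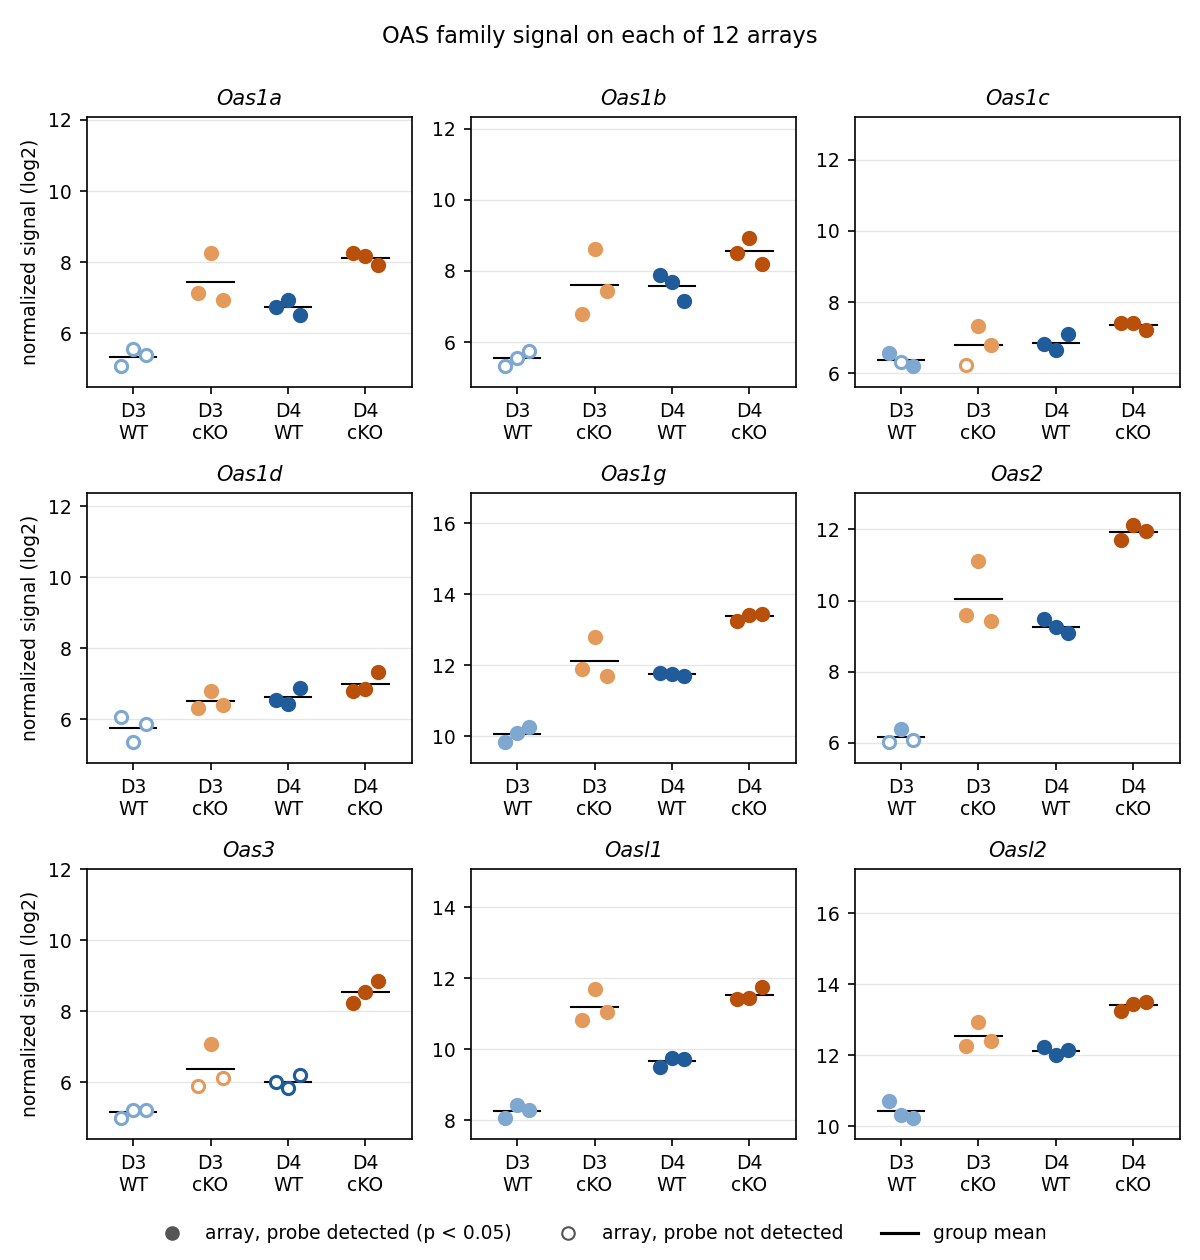
Normalized log2 signal of the probe that represents each OAS gene on each of 12 arrays, by day and genotype, with every vertical axis spanning the same range and black lines at group means. Filled points mark arrays on which the probe was detected. D3 wild type arrays have the lowest mean and D4 cKO arrays the highest in each of the 9 panels.

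All 9 genes are annotated on mouse chromosome 5, the Oas1, Oas2 and Oas3 genes in 1 cluster and Oasl1 and Oasl2 as a neighbouring pair elsewhere on it. RefSeq windows of 300 bases around the annotated start (250 before, 50 after; build GRCm38.p6, named for the sequences only, since the array files name no build) were matched for 6 of the 9 members: Oas1a, Oas1c, Oas1g, Oas3, Oasl1 and Oasl2. The core letters of the ISRE, GAAANNGAAA, were searched on both strands, because OAS members moved together and this is the element of ISGF3. The core was present in 4 of these 6 windows (Oas1a, Oas1c, Oas1g and Oas3), and 3.44% of 32851 mouse windows of this length held it. The stretches below show the matched letters in capitals, 5′ to 3′, where overlapping matches run together.
Oas1a, chr5:120907508-120907567, minus strand: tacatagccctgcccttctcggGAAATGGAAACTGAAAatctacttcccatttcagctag
Oas1g, chr5:120887594-120887653, minus strand: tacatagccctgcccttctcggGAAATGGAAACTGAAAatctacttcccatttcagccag
Oas1c, chr5:120812591-120812650, plus strand: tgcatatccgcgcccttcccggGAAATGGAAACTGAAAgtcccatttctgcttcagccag
Oas3, chr5:120777697-120777756, minus strand: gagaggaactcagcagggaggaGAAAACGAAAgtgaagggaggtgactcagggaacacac

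Oas1a, Oas1g and Oas1c shared the same run of capitals, which holds 2 overlapping cores. In Oas1a the cores began 20 and 14 bases before the annotated start, and in Oas1g 18 and 12 bases before it, on the strand of the gene. In Oas1c the run lay on the opposite strand from the gene, and it began 114 bases before the start, in a window that overlaps the annotated Oas1b span. The windows of Oas1a and Oas1g shared an unbroken run of 73 bases, and each shared 19 bases with the opposite strand of Oas1c. The Oas3 core, 75 bases before the start, was a different sequence. Oas1c, whose window holds the core, stayed near the limit of detection and was not called in any comparison. The printed Oas1c stretch also covers position 120812635, where the annotated span of Oas1b begins. Oas1b has no window here and was called between genotypes at D3, and which gene the run belongs to was not tested. Oasl1 and Oasl2, whose windows hold no exact match, were called between genotypes at both days. Looser forms of the element and sequence outside the windows were not searched. Whether the core goes with the differences was not tested.

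The letters GNGAAAG, a core found in Blimp-1 sites, occurred in 1 of the 6 windows, that of Oas1c, 42 bases after the start on the opposite strand, and in 22.6% of all windows. The letters TTCNNNGAA of the GAS element, another element of interferon-responsive genes, occurred only in the Oas1a window among the 6, 98 bases before the start, and in 8.3% of all windows. That match reads as the motif on both strands. A match of letters describes the sequence and is no measure of binding.

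Oas1a and Oas1g encode active synthetases of the small OAS1 type. Oas1g (probe 1253808) gave log2 signals of 9.84, 10.08 and 10.25 on the D3 wild type arrays, 11.90, 12.80 and 11.70 on D3 cKO, 11.79, 11.76 and 11.70 on D4 wild type, and 13.26, 13.41 and 13.44 on D4 cKO. Every cKO array lay above every wild type array of its day, and the D3 cKO arrays overlapped the D4 wild type arrays. The log2 fold change between genotypes was 2.07 at D3 (standard error 0.23, adjusted p = 0.000345) and 1.62 at D4 (standard error 0.23, adjusted p = 0.0019). A different Oas1g probe (2628822) gave 2.08 and 1.55. The third tested probe (2816196) was below detection throughout wild type, and its differences did not pass the test (adjusted p = 0.173 at D3 and 0.0681 at D4), with lower bounds of at least 1.20-fold and at least 1.78-fold. A bound is the mean of the brighter group over the lowest signal of any detected probe on the dimmer group's arrays.

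Oas1a (2924839) was below detection on all 3 D3 wild type arrays, at 5.08, 5.55 and 5.38, and was detected on all other arrays. Its signals were 7.14, 8.24 and 6.93 on D3 cKO, 6.73, 6.93 and 6.51 on D4 wild type and 8.26, 8.18 and 7.92 on D4 cKO. The genotypes did not overlap at either day, and 1 D3 cKO array reached the D4 cKO level. Oas1a was at least 2.29-fold higher in the cKO at D3 (adjusted p = 0.00151) and 2.63-fold higher at D4 (adjusted p = 0.0168). The D4 call ended without D4 wild type replicate 3 (adjusted p = 0.075), D4 cKO replicate 1 (0.0618) or D4 cKO replicate 2 (0.0557). The sequences of the probes were not used here, so whether probes of Oas1a, Oas1g and the other Oas1 genes also bind RNA of their near relatives was not tested.

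Oas1b, Oas1c and Oas1d are further members of the Oas1 cluster. A full-length Oas1b protein gives some mouse strains resistance to flaviviruses, and the reference annotation of the C57BL/6 genome lists the gene as a transcribed pseudogene. Oas1b (2613140) gave 5.33, 5.54 and 5.75 on D3 wild type, where it was not detected, 6.78, 8.61 and 7.43 on D3 cKO, 7.88, 7.70 and 7.15 on D4 wild type, and 8.52, 8.93 and 8.20 on D4 cKO. The Oas1b signal thus followed the pattern of the active members at D3, and at D4 its groups were separate but closer. The methods name C57BL/6 for the wild type mice only, so the form of Oas1b in the cKO donors is not known here. It was at least 2.57-fold higher in the cKO at D3 (adjusted p = 0.0125), a call that ended without D3 wild type replicate 1 (adjusted p = 0.0504) or 2 (0.0533). At D4 its log2 fold change was 0.97 and did not pass the test (adjusted p = 0.187). The other Oas1b probe (2823462) was at least 2.42-fold higher at D3 (adjusted p = 0.00343), with 1.18 on the log2 scale at D4 (adjusted p = 0.0565). At D4 this probe passed the test under 8 of 24 alternative settings.

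Oas1c and Oas1d lack synthetase activity in mouse, and Oas1d has been studied mainly in the ovary. Oas1c (2801770) stayed near the limit of detection, at 6.57, 6.30 and 6.20 on D3 wild type, 6.22, 7.33 and 6.79 on D3 cKO, 6.82, 6.65 and 7.10 on D4 wild type and 7.42, 7.40 and 7.21 on D4 cKO. The genotypes overlapped at D3 and were narrowly separate at D4. Its differences of 0.42 (95% interval -0.09 to 0.94) at D3 and 0.48 (-0.03 to 1.00) at D4 in log2 units did not pass the test (adjusted p = 0.513 and 0.288).

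Oas1d (2929966) was not detected on D3 wild type arrays (6.07, 5.37 and 5.86) and lay at 6.33, 6.80 and 6.42 on D3 cKO, 6.54, 6.43 and 6.89 on D4 wild type and 6.80, 6.84 and 7.33 on D4 cKO. The D3 groups did not overlap, whereas the D4 groups did. The log2 fold change was 0.75 at D3 (adjusted p = 0.122), with a bound of at least 1.21-fold, and 0.37 (95% interval -0.10 to 0.84) at D4 (adjusted p = 0.386). Its 95% interval at D3, from 0.28 to 1.22, reached the fitted difference of Oas3 at that day (1.21).

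Oas2 and Oas3 are larger enzymes built of repeated OAS domains. The log2 signals of Oas2 (2670150) were 6.02, 6.37 and 6.07 on D3 wild type, where 1 of 3 arrays detected it, and 9.59, 11.10 and 9.42 on D3 cKO. At D4 they were 9.47, 9.25 and 9.08 in wild type and 11.69, 12.14 and 11.96 in the cKO. The genotypes were far apart at both days, and D4 wild type arrays overlapped D3 cKO arrays. Oas2 was higher in the cKO at D3, by a fitted 3.88 on the log2 scale (standard error 0.35, adjusted p = 7.26e-05), and 6.34-fold higher at D4 (2.66, standard error 0.35, adjusted p = 0.00118). The D3 size rests on a wild type group near background, and it was 2.34 on the log2 scale without background correction.

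Oas3 (1216020), which in human cells makes 2-5A from long double-stranded RNA, was near background on most arrays. Its intensity before normalization was 177, 178 and 199 on D3 wild type and 238, 210 and 218 on D4 wild type arrays, none of which detected it. In the cKO it gave 209, 410 and 277 at D3, with detection on replicate 2 alone, and 427, 574 and 599 at D4 with detection on all 3 arrays. The genotypes did not overlap at either day, and the D4 cKO arrays stood above all others. Oas3 was at least 4.93-fold higher in the cKO at D4 (adjusted p = 0.000311). From the processed values its fitted log2 differences were 2.82 at D3 and 2.89 at D4. At D3 it was at least 1.09-fold higher (adjusted p = 0.0344), and this call ended under 11 of 23 alternatives, among them leaving out any of the 3 D3 wild type arrays (adjusted p between 0.0977 and 0.109), D3 cKO replicate 2 (0.0539), D4 wild type replicate 2 (0.0506) or D4 cKO replicate 2 (0.0543).

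Oasl1 and Oasl2 encode OAS-like proteins with ubiquitin-like ends. Oasl1 has no synthetase activity and in mouse limits translation of Irf7 mRNA, while mouse Oasl2 is an active enzyme. Oasl1 (2793464) was detected on every array, with log2 signals of 8.07, 8.43 and 8.29 on D3 wild type, 10.81, 11.69 and 11.04 on D3 cKO, 9.50, 9.74 and 9.72 on D4 wild type and 11.41, 11.44 and 11.74 on D4 cKO. Oasl1 was higher on every D3 cKO array than on any D4 wild type array, and the D3 and D4 cKO arrays overlapped. It was 7.56-fold higher in the cKO at D3 (log2 fold change 2.92, standard error 0.20, adjusted p = 1.44e-05) and 3.66-fold higher at D4 (1.87, standard error 0.20, adjusted p = 0.000356). Its other probes (2717366 and 2722380) gave 2.74 and 2.81 at D3 and 1.92 and 2.01 at D4.

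Oasl2 (2954868) gave 10.72, 10.33 and 10.25 on D3 wild type, 12.27, 12.94 and 12.40 on D3 cKO, 12.24, 12.01 and 12.16 on D4 wild type and 13.26, 13.45 and 13.50 on D4 cKO. None of the 4 groups overlapped another. It was 4.30-fold higher in the cKO at D3 (adjusted p = 4.83e-05) and 2.41-fold higher at D4 (adjusted p = 0.00195), and probe 2599154 gave 6.92-fold and 3.92-fold. The probe of a cDNA clone assigned to Oasl2 (2552783) was detected on no D3 wild type array, and its log2 fold changes of 1.45 and 1.54 did not pass the test (adjusted p = 0.177 and 0.0828).

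**Figure D2:**
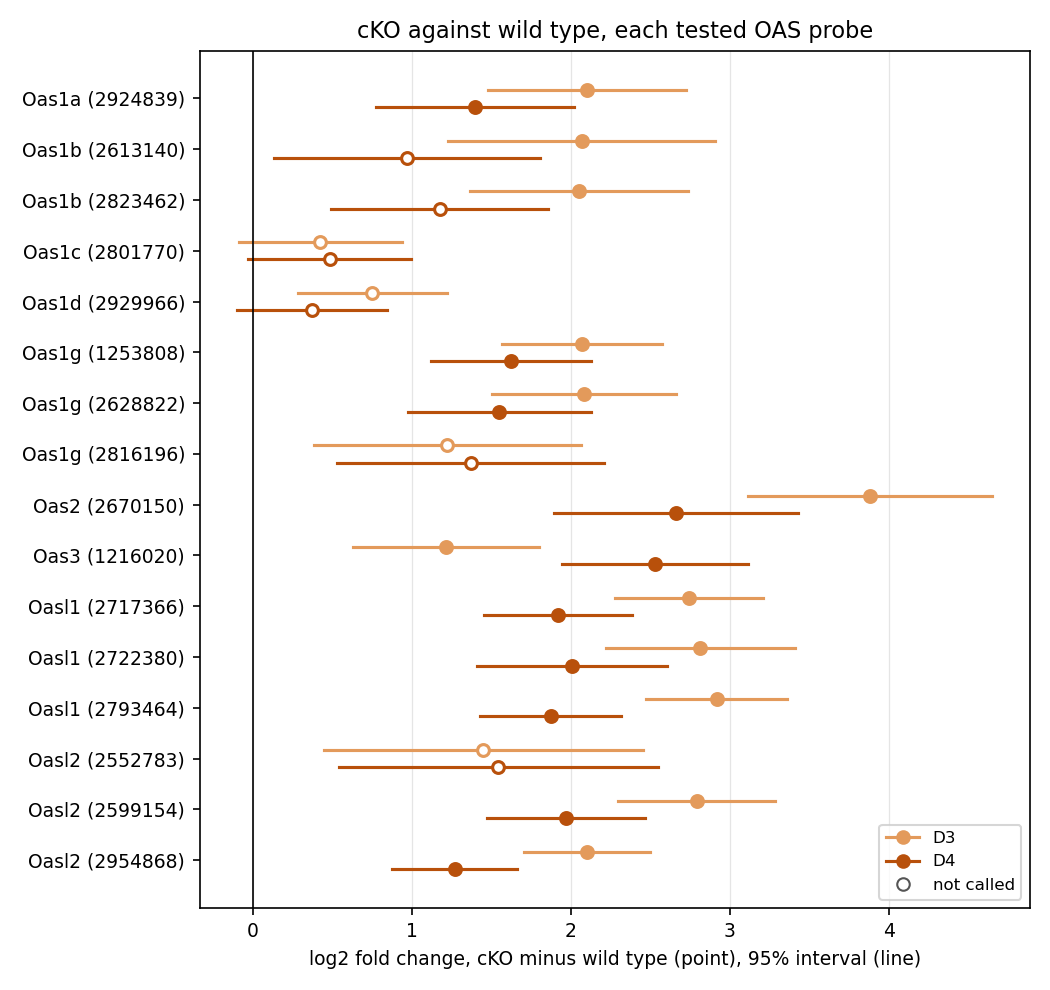
Log2 fold change of the cKO against wild type for each of the 16 tested OAS probes, at D3 (light) and D4 (dark), with 95% intervals from the limma fit. Filled points passed the test. For probes not detected in wild type the plotted value is the fitted difference, and the text gives lower bounds. 12 probes passed at D3 and 10 at D4, and every fitted difference is above 0. Oas3 (1216020) and Oas1g (2816196) were detected on cKO arrays alone and passed the detection filter only through them.

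Counted by probe, 12 of 16 were higher in the cKO at D3 (1.75% of all tested probes) and 10 of 16 at D4 (2.59%). At D4, arrays that share a number were run on the same BeadChip, which allows a comparison within each of 3 BeadChips. The cKO signal was higher within every BeadChip for all 16 probes, with differences for Oas2 of 2.22, 2.88 and 2.88, for Oas3 of 2.24, 2.69 and 2.65, and for Oasl1 (2793464) of 1.91, 1.69 and 2.02 on the log2 scale. Of these probes, Oas3 (1216020) and Oas1g (2816196) were detected on cKO arrays alone. They passed the detection filter only through the cKO and add no support to the counts of this paragraph. How many of all tested probes were higher within every BeadChip was not counted here. The lowest difference was that of Oas1c, at 0.10 in the third BeadChip. With the BeadChip as a block in a fit of the D4 arrays, 6 of 9 genes were again higher. In that fit 2.0% of all genes were called in either direction. For D3 the BeadChips are not known here.

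Within the D3 cKO group, replicate 2 had the highest signal of every tested OAS probe. It gave the highest of the 3 signals for 16 of 16 probes, by 0.38 to 1.54 on the log2 scale over the next array, while over all 19972 tested probes it was the highest in 33.1%. The median of the 9 genes above their D3 wild type means was 1.80, 2.73 and 1.64 on the 3 D3 cKO arrays, 1.39, 1.58 and 1.46 on D4 wild type and 2.98, 3.17 and 3.07 on D4 cKO. All medians in this paragraph include genes that were not detected on D3 wild type arrays. Replicate 2 of D3 cKO thus lay between the other D3 cKO arrays and the D4 cKO arrays. Without this array the median difference at D3 was 1.67 in place of 2.07 and 6 of 9 genes were called, Oas3 being lost. Of all genes, 1.87% were then called in either direction at D3, against 2.49% in the main fit.

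**Figure D3:**
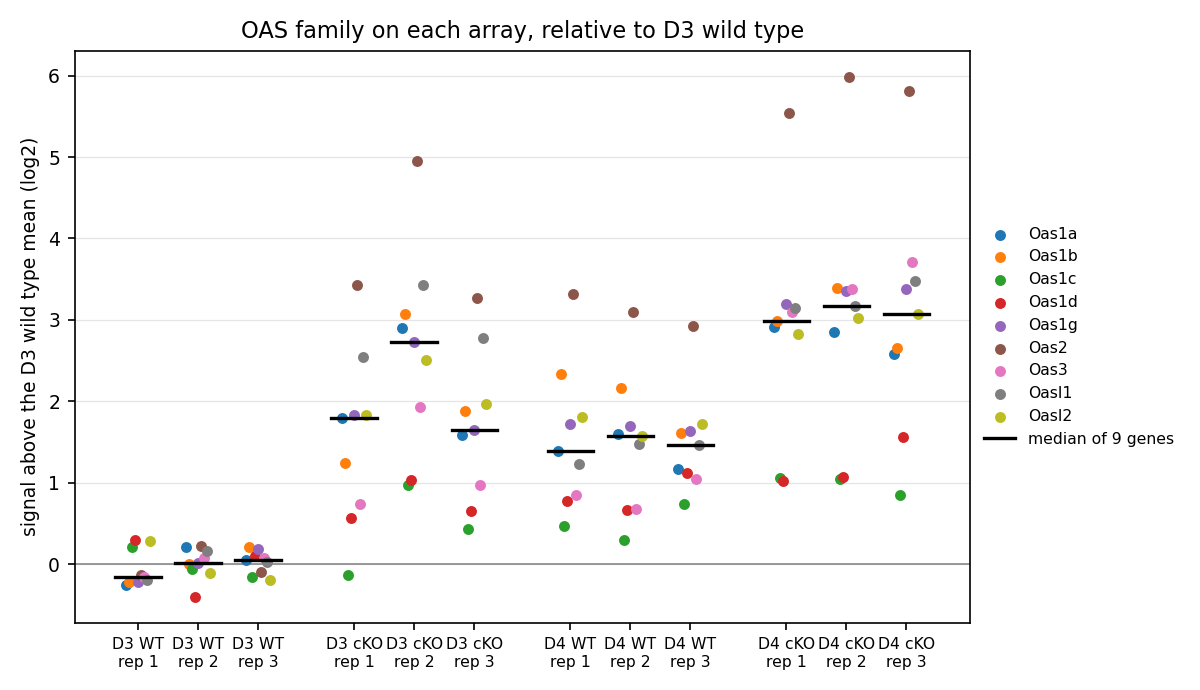
Log2 signal of each of the 9 OAS genes above its D3 wild type mean on each array, with black lines at the median of the 9 genes. D3 cKO replicate 2 has a median of 2.73, against 1.80 and 1.64 on the other D3 cKO arrays, and the D4 wild type medians lie between 1.39 and 1.58. Oas1a, Oas1b, Oas1d and Oas3 were not detected on D3 wild type arrays.

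OAS signals in wild type cultures also rose from D3 to D4. Of the 9 genes, 8 passed the test (13 of 16 probes, beside 6.3% of all tested probes), Oas1c being the exception (log2 change 0.50, adjusted p = 0.164), and the median change was 1.39. This median includes fitted changes of genes not detected on D3 wild type arrays. Oas2, detected on 1 of 3 D3 wild type arrays, rose with a fitted log2 change of 3.11 (standard error 0.35, adjusted p = 0.00052), or 1.69 without background correction. Oasl2 rose 3.26-fold (adjusted p = 0.000421), Oas1g 3.22-fold (adjusted p = 0.00105) and Oasl1 2.62-fold (adjusted p = 0.00139). Oas1a rose at least 1.40-fold, Oas1b at least 2.53-fold and Oas1d at least 1.30-fold, since none was detected on D3 wild type arrays. Oas3 passed the test (adjusted p = 0.0435) with no fold, because it was below background at both days. Its call ended when any 1 of the 6 wild type arrays was left out (adjusted p between 0.0604 and 0.125) or without D4 cKO replicate 2 (0.058). The Oas3 call also ended without background correction, with an offset of 50 and without the filter. The Oas1d call ended without D3 wild type replicate 2 (adjusted p = 0.0658) or D4 wild type replicate 3 (0.0674). It also ended with the processed values, without background correction, with an offset of 50 and by the methods' t-test after adjustment. The Oas1a call ended without background correction. D4 wild type levels overlapped those of D3 cKO in 7 of 9 genes, Oasl1 and Oasl2 being higher on all D3 cKO arrays. This overlap was not counted over all genes.

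In the cKO, 4 of 9 genes (6 of 16 probes, beside 2.18% of all tested probes) rose from D3 to D4, with a median change of 0.87. They were Oas3 (fitted log2 change 2.18, adjusted p = 0.00356, and 1.08 without background correction, with detection on 1 of 3 D3 arrays), Oas2 (3.72-fold, adjusted p = 0.0161), Oas1g (2.36-fold, adjusted p = 0.0161) and Oasl2 (1.83-fold, adjusted p = 0.0233). Oasl1 had a log2 change of 0.35 (95% interval -0.10 to 0.79, adjusted p = 0.336), and Oas1a one of 0.68 (adjusted p = 0.175). The count rested on single arrays: it was 7 without D3 cKO replicate 2, and 1 without D3 cKO replicate 1, D4 cKO replicate 2 or D4 cKO replicate 3. All genes called in either direction made up 4.14% in the main fit. Without these arrays, in the same order, the share was 3.27%, 1.58%, 1.37% and 1.54%. Deviations of the D3 and D4 cKO arrays from their group means were correlated within each replicate number (0.31, 0.35 and 0.36), and with the number as a replicate block in a fit of the cKO arrays 2 genes were called, Oas2 (adjusted p = 0.0466) and Oas3 (0.042). That fit called 2.63% of all genes in either direction.

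**Figure D4:**
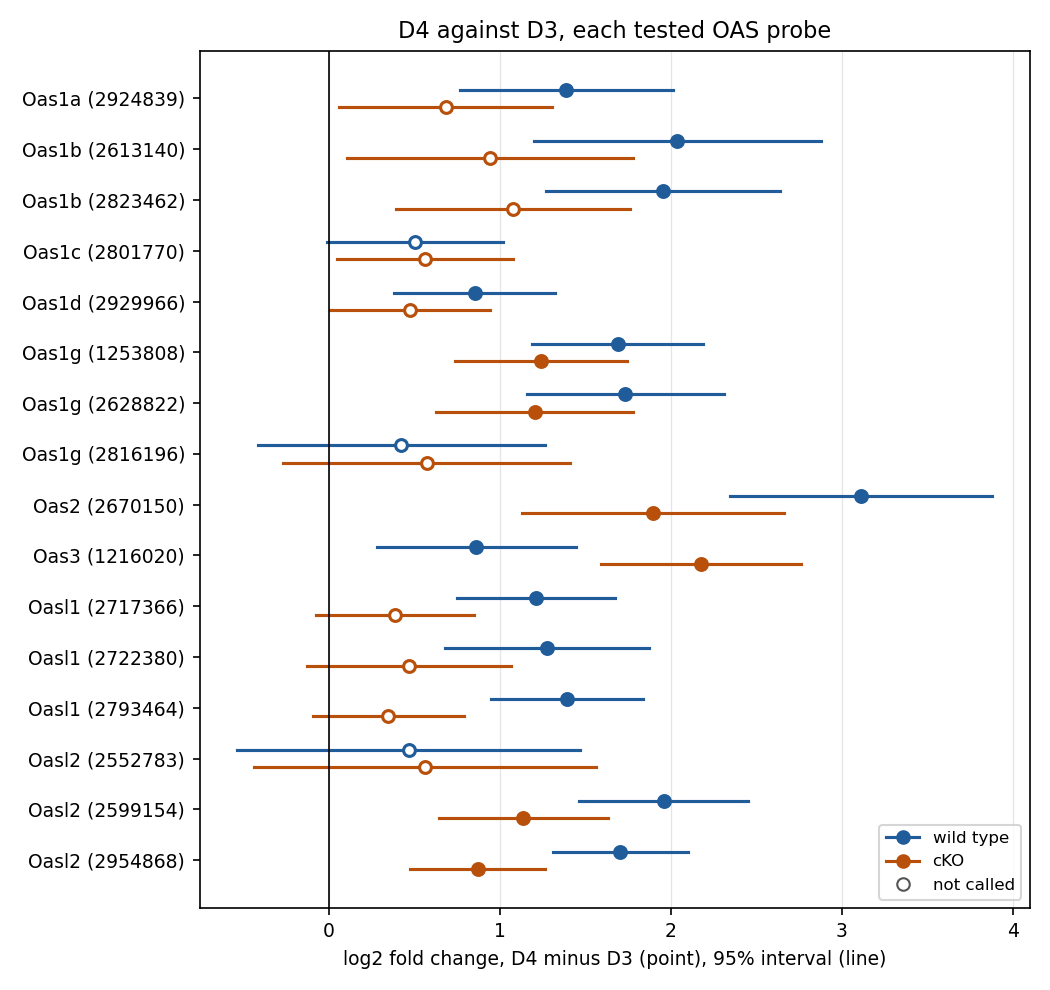
Log2 fold change of D4 against D3 for each of the 16 tested OAS probes in wild type (blue) and cKO (orange), with 95% intervals from the limma fit, filled where the test was passed. For probes not detected in D3 wild type the plotted value is the fitted difference. Oas3 was detected on no wild type array, so its wild type point is no measured change. The test was passed by 13 probes in wild type and 6 in the cKO.

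The difference between genotypes was compared between the days as an interaction in the same fit. By limma it passed for 0 of 9 OAS genes and for 0% of all genes. At an unadjusted p under 0.05 there were 4 OAS genes and 793 of all genes, and the lowest adjusted p among OAS probes was 0.429, for Oasl1, whose genotype difference was 1.04 smaller at D4. The interaction was -1.22 for Oas2 (95% interval -2.30 to -0.13, adjusted p = 0.619) and 1.32 for Oas3 (0.49 to 2.14, adjusted p = 0.453), but neither size held under other treatments of the background. That of Oas2 was 0.02 without background correction, and that of Oas3, which was below detection in wild type at both days, was 0.07 from the processed values. The median over the 9 genes was -0.70, and -0.28 without D3 cKO replicate 2. Both medians include fitted values of genes below detection in D3 wild type.

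Of the 2-5A pathway, 3 genes had a tested probe, and none passed the test between genotypes or between days. Pde12, a phosphodiesterase that degrades 2-5A, had a log2 difference of -0.02 (D3) and 0.10 (D4), Akap7, whose protein can also cleave 2-5A, 0.06 and -0.32, and Abce1, an ATP-binding protein that also acts in ribosome recycling, 0.02 and -0.20. Enpp1 was matched to no probe and was not analysed here. The other Oas1 cluster genes Oas1e, Oas1f and Oas1h each had 1 probe, detected on no array. The proteins cGAS, Ilf2, Strbp, Zfr and Mb21d2 share a fold with the OAS enzymes, and 0 of these 5 genes were called between genotypes at either day. Cgas, the cytosolic DNA sensor, differed by 0.24 at D3 (adjusted p = 0.433) and 0.49 at D4 (adjusted p = 0.0336) on the log2 scale, the latter under the fold minimum. Another Cgas probe (1246502) went the other way, at -0.10 (adjusted p = 0.928) and -0.36 (adjusted p = 0.542). Ilf2 had -0.07 and -0.19, and its other probe (1230688) 0.99 (adjusted p = 0.0782) and 0.95 (adjusted p = 0.0577).

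Adar, which edits adenosines in double-stranded RNA, was higher in the cKO at D3 (log2 fold change 0.88, adjusted p = 0.00614) and D4 (0.86, adjusted p = 0.006), and Eif2ak2, the kinase PKR, had 0.56 (adjusted p = 0.0689) and 0.37 (adjusted p = 0.164). Of the upstream factors with a tested probe, Irf7, an activator of interferon genes, was higher by 2.59 at D3 (adjusted p = 0.000384) and 2.27 at D4 (adjusted p = 0.00104). Stat2 was higher by 1.59 (adjusted p = 0.000774) and 1.37 (adjusted p = 0.00195). Irf9 was higher at D3 by 0.85 (adjusted p = 0.00312) but not called at D4 (0.24, adjusted p = 0.345), a contrast between the days that was not called in the interaction. Irf1 had -0.06 and 0.17. Ifnl2 was matched to no probe, the Ifnb1 probe was detected on 2 arrays and that of Ifnl3 on none.

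The genes beside the OAS loci were taken as neighbours by position. Of 20 protein-coding genes flanking the Oas1, Oas2 and Oas3 cluster (10 on each side), 9 had a tested probe, with a median log2 fold change of 0.05 at D3 and 0.04 at D4. Trafd1, a gene of antiviral signalling feedback, was the only 1 of the 9 called between genotypes, by 0.83 at D3 (adjusted p = 0.00503) and 0.74 at D4 (adjusted p = 0.00821). From D3 to D4 in wild type, 3 of the 9 were called higher, beside 7.09% of all genes. They were Trafd1 (log2 change 0.77), Slc8b1 (0.73) and Rasal1 (1.65). In the cKO only Trafd1 was called higher between days (0.68), beside 2.53% of all genes. Of 20 genes flanking Oasl1 and Oasl2, 16 had a tested probe and 0 were called between genotypes, with medians of -0.03 and 0.04. Between days in wild type 1 of the 16 was called higher and 1 lower, beside 7.09% and 4.89% of all genes.

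**Figure D5:**
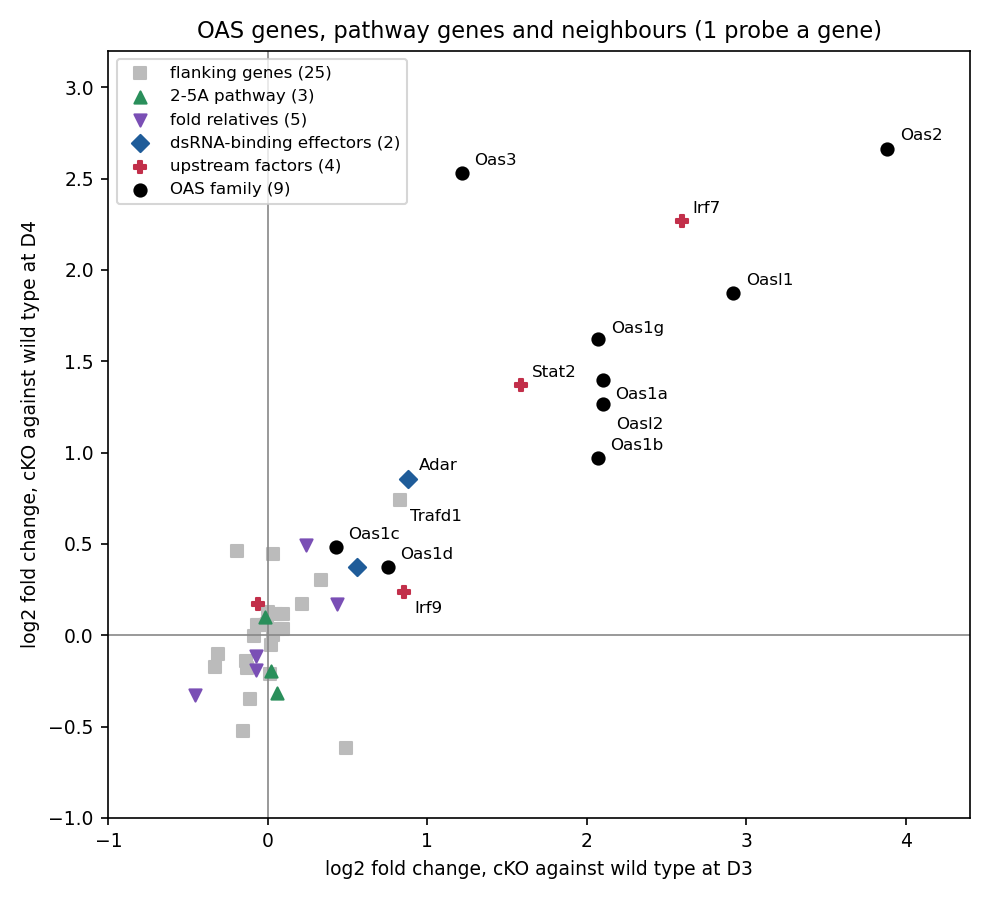
Log2 fold change of the cKO against wild type at D3 (horizontal) and D4 (vertical) for 1 probe of each of the 9 OAS genes (black), of pathway genes and of flanking genes (grey). For probes not detected in wild type the plotted value is the fitted difference. Irf7 and Stat2 lie among the called OAS genes, while the 2-5A pathway genes lie within 0.32 of 0 on both axes.

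Across the 12 arrays the members followed each other closely. The correlation of a gene with the mean of the other members, over 12 arrays that share the same 4 groups, was highest for Oas2 (Pearson's r = 0.989) and Oas1g (0.989) and lowest for Oas1d (0.873) and Oas1c (0.846). The 8 genes outside the family with the highest correlation to its mean profile, described without a test, were Irf7 (0.993), Gm4951 (0.991), Lgals9 (0.990), Ogfr (0.990), Dtx3l (0.986), Gbp3 (0.985), Stat2 (0.984) and H2-T10 (0.984). Lgals9 encodes galectin-9, Dtx3l a ubiquitin ligase, Gbp3 an interferon-induced GTPase and H2-T10 a class I histocompatibility protein. Their own differences varied in size at D3, from 2.94 for Gm4951 to 0.71 for Ogfr on the log2 scale.

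Arrays detected between 18087 and 18905 of 45281 probes. Prdm1 has 1 tested probe (2597923), detected on 0 wild type arrays, 1 D3 cKO array and 3 D4 cKO arrays, and it was at least 1.49-fold higher in the cKO at D4 (adjusted p = 0.00478). Where this probe lies relative to the deleted part is not known here, so it does not check the deletion. All 8 luminal markers were detected on every array, and 0 were called between genotypes. Of 6 basal markers 0 were called, but their summed linear signal was 44420 to 48504 on D3 wild type, 50637 to 63491 on D3 cKO, 40480 to 48107 on D4 wild type and 51295 to 60570 on D4 cKO. The sum of 8 fibroblast markers was 7611 to 9727, 11288 to 14115, 8201 to 13877 and 14100 to 17269 in the same order, with Pdpn called at both days. The part of these shifts in the OAS differences was not tested. All 6 lymphocyte markers with a probe and all 4 adipocyte markers were detected on no array, as were Ptprc, Adgre1 and Itgam among 7 myeloid markers with a probe. Of 6 endothelium markers, 5 had a tested probe, 3 were detected on every array and 0 were called between genotypes. Among them, Emcn was lower at D4 than at D3 in wild type (log2 change -0.73, adjusted p = 0.0317). Of the 4 tested myeloid markers, Lyz2, a lysozyme gene, was lower in the cKO at D4 (log2 fold change -1.17, adjusted p = 0.00734) and fell from D3 to D4 in the cKO (-0.80, adjusted p = 0.0463), and the other 3 were not called between genotypes. The myeloid sum was 11842 to 17748, 15339 to 15803, 19579 to 22464 and 13818 to 20441.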

How the data were processed

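The intensity values used here are signals per probe as deposited by the authors from GenomeStudio, before any normalization. The deposited detection p-values compare each probe with negative control beads. The authors' processed intensity values (rank-invariant normalization, background subtracted) served as an alternative.

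The neqc function (limma 3.58.1, R 4.3.3, offset 16) corrected background, applied quantile normalization and took log2. Probes were named from platform annotation: 34885 carry 1 gene symbol, 18 several and 10378 none. A model with a mean for each of 4 groups was fitted to the 19972 tested probes with lmFit and eBayes, and p-values were adjusted over them by the Benjamini-Hochberg method. Calls required adjusted p up to 0.05 plus a 1.5-fold change, or the adjusted p alone for the interaction. The tested probe with the highest mean represents a gene, and every OAS probe is reported. The fit was tested on simulated data. Bounds use means of normalized log2 values. Precision is limited by the number of arrays: 3 against 3 cannot go below an exact p of 0.1.

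Replicate numbers mark BeadChips at D4: 598 of 598 probes of a table naming its columns by BeadChip matched each D4 array within 0.1% (or 0.001 for values under 1). Residuals of same-numbered arrays correlated at 0.31, 0.35 and 0.36 between D3 and D4 in the cKO, at 0.18, 0.13 and 0.08 in wild type, at 0.14, 0.09 and 0.10 between genotypes at D3 and at -0.05, 0.03 and -0.08 at D4. The numbers were taken as pairs for the cKO days on this ground.

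Members, gene lists and alternatives were chosen with earlier results of these data known. Named genes are all members and list genes, Prdm1 and the 8 genes most correlated with the family. Alternatives were the processed values floored at 10, no background correction, an offset of 50, no filter, detection at p under 0.01 throughout a group, a replicate block, trend and robust variances, only the arrays compared, no fold minimum, any probe of a gene, the methods' t-test (of their general statistics, since the arrays were tested with an Illumina error model) and leaving out each array. Replicate blocks in fits of 1 genotype were added after seeing the data.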

Additional observations from a re-analysis of the deposited data

How the results depend on the processing

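Counts of OAS genes kept their direction under all alternatives run, and no alternative called a gene lower. Leaving out each array gave 5 to 7 genes higher in the cKO at D3, 5 to 6 at D4, 6 to 8 higher at D4 in wild type and 1 to 7 in the cKO. In the same order, 1.68% to 2.63%, 2.54% to 4.63%, 9.25% to 12.1% and 1.37% to 5.14% of all genes were called in either direction. The methods' t-test after adjustment gave 0 at D3 and 0 for D4 against D3 in the cKO, beside 0.0373% and 0% of all genes called in either direction. Without background correction 5 genes rose in wild type, beside 6.95% of all genes called in either direction. With the arrays of both cKO groups alone 1 gene rose in the cKO, and 2 with the replicate block in that fit. These fits called 0.765% and 2.63% of all genes in either direction. The replicate block in the fit of all arrays gave 7, 6, 8 and 4 genes in the 4 comparisons. Of all genes it called 3.36%, 5.78%, 12.6% and 4.81% in either direction. The causes were not tested.

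Among single probes, only interactions changed sign. For Oas1c the range over arrays left out was -0.22 to 0.33. That of Oas1g (2816196) was -0.22 to 0.71, with -0.41 from the processed values and -0.0056 without background correction. For Oas2 the interaction was 0.024 without background correction. For Oasl2 (2552783) it was -0.24 to 0.64 over arrays left out and -0.70 from the processed values. None of these passed the test. Signals near background in wild type limit Oas1c, Oas1d and Oas3, and at D3 also Oas1a, Oas1b and Oas2. There the differences are bounds or small, or, for Oas2, depend on the background correction.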
